A study of Mus musculus with 7 samples.

Results

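The genes described here are those of neutrophil recruitment and neutrophil identity, chosen by symbol: the chemokines Cxcl1, Cxcl2, Cxcl3 and Cxcl5, the chemokine receptor Cxcr2, the granulocyte growth factor Csf3 and its receptor Csf3r, the cytokine Il1b, and the calcium-binding proteins S100a8 and S100a9. All 10 were found among the 50600 genes of the deposited tables. RNA was sequenced from 3 control mouse mammary glands and 4 mammary tumours of mice carrying an ECD transgene. ECD is the mammalian counterpart of the fly protein ecdysoneless. By histology, tumours 1a and 1b were adenosquamous carcinomas, tumour 3 was a spindle cell carcinoma and tumour 4 was a papillary carcinoma. The spindle cell and papillary types therefore have 1 library each and no replicate. The strain, age and sex of the mice, the genotype of the control mice, the promoter and cell type that drive the transgene and its species of origin are not stated in the sources used here. Tumour RNA came from the centre of each tumour, and the sources call the glands and tumours independent. Tumours 1a and 1b share a number, so they may come from 1 mouse. P-values measure the spread between these libraries only.

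Neutrophils leave the blood along gradients of chemokines that carry a glutamate-leucine-arginine motif before their first cysteines. In the mouse these include the products of Cxcl1, Cxcl2, Cxcl3 and Cxcl5, which signal through the receptor CXCR2 on the neutrophil surface. Csf3 encodes G-CSF, which drives the formation of neutrophils in bone marrow through the receptor encoded by Csf3r, and interleukin-1 beta, the product of Il1b, induces these chemokines and Csf3 in epithelial and stromal cells. S100A8 and S100A9 form calprotectin, which fills the cytoplasm of neutrophils and is also made by stressed keratinocytes and by some monocytes. In whole tissue the source of a transcript is not resolved, and a difference in the number of cells cannot be told apart from one in RNA per cell.

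The 4 chemokine genes lie together on chromosome 5 of GRCm38, in the order Cxcl5 (90759360 to 90761624), Cxcl3 (90786103 to 90789600), Cxcl1 (90891241 to 90893115) and Cxcl2 (90903871 to 90905938). All are on the plus strand, and from the first to the last they span 146.6 kb. S100a8 (90668978 to 90670035, plus strand) and S100a9 (90692632 to 90695721, minus strand) lie within 26.7 kb on chromosome 3. The other 4 genes are on separate chromosomes: Cxcr2 on chromosome 1 (74153989 to 74161246, plus strand), Il1b on chromosome 2 (129364570 to 129371139, minus strand), Csf3r on chromosome 4 (126024550 to 126044440, plus strand) and Csf3 on chromosome 11 (98701263 to 98703629, plus strand). These positions are those of GENCODE release M21.

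RefSeq promoter sequences on GRCm38.p6 were matched for 8 of the 10 genes, and not for Cxcl5 and Csf3. The 250 bases before the RefSeq transcript start were searched on both strands for 4 motifs: the NF-kB motif of 10 bases by its name, the C/EBP motif TTGCNNAA, the AP-1 motif TGANTCA and the TATA box TATAAA. The 4 promoters with an NF-kB match are printed, because 3 of them belong to neighbouring chemokine genes that share an identical run of bases. Capitals mark the NF-kB matches.
Cxcl1 (chr5:90890995-90891244, plus strand): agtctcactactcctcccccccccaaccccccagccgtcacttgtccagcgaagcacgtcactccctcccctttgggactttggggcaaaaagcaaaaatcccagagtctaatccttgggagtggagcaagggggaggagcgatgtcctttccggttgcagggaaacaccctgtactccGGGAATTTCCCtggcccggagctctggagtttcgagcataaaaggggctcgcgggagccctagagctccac
Cxcl2 (chr5:90903649-90903898, plus strand): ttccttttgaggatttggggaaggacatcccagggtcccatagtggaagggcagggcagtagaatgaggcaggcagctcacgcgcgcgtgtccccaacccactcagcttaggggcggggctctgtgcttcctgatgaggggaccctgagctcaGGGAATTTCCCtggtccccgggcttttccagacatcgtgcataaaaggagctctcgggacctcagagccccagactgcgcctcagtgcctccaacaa
Cxcl3 (chr5:90785851-90786100, plus strand): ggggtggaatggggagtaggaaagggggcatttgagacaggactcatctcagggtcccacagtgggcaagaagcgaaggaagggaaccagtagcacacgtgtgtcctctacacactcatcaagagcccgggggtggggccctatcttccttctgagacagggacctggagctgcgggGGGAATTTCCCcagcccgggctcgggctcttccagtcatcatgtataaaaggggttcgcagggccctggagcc
Csf3r (chr4:126024409-126024658, plus strand): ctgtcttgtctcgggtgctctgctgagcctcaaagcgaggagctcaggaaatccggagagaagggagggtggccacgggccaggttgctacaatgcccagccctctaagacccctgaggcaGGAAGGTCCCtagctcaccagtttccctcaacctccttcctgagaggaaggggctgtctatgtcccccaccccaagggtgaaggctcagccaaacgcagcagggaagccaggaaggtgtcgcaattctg

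In Cxcl1, Cxcl2 and Cxcl3 the capitals are the same 11 bases, GGGAATTTCCC, which hold a pair of overlapping NF-kB matches. The run begins 71 bases before the start of Cxcl1, 97 before that of Cxcl2 and 73 before that of Cxcl3. An NF-kB match was present in 7.25% of the 32851 mouse promoters of this length. The 11-base run, which was noticed after the sequences were read, was present in 14 of them (0.0426%). Those 14 include Cxcl1, Cxcl2 and Cxcl3, and the run was defined from the Cxcl1 sequence, so this share is not independent of these genes. The match in Csf3r, GGAAGGTCCC, begins 129 bases before its start. An exact TATAAA match stood in 3 of the 8 promoters (Cxcl3, S100a8 and Il1b, against 12.4% of all promoters). A C/EBP match stood in 1 (S100a9, against 9.56%) and an AP-1 match in 0 (against 6.75%). Near matches, such as cataaa in the printed Cxcl1 and Cxcl2 sequences, were not counted. A match describes the letters of these windows and does not show that a factor binds there.

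Total counts ran from 5148438 to 35631279 per library. Levels are given as CPM, counts per 1000000 of the scaled library size, and 3 counts corresponded to between 0.0935 CPM in the most deeply sequenced library and 1.05 CPM in control gland 1. A value of 0 in gland 1 therefore still allows a level of up to 1.05 CPM, which is counting error alone. Mitochondrial transcripts made up 48.4% to 64.8% of counts in the glands and 18.3% to 32.6% in the tumours. The expression of the transgene was not checked here.

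All 4 chemokine genes were at 0.686 CPM or less in every gland and in both the spindle cell and papillary tumours, and all 4 were above 1 CPM in both adenosquamous tumours. Cxcl1, a major neutrophil chemoattractant of mouse tissue, was at 14.5 and 13.6 CPM in tumours 1a and 1b, 0.584 CPM in the spindle cell and 0.276 CPM in the papillary tumour. The glands held 0, 0.686 and 0.375 CPM. The lower of the adenosquamous values was thus well above each of the other 5 libraries, and the adenosquamous pair, at 14.03 ± 0.629 CPM (SD, n = 2), varied little. Cxcl1 rose in the adenosquamous tumours against the glands by 4.87 on the log2 scale (SE 0.69, adjusted p = 0.0204, edgeR quasi-likelihood test with Benjamini-Hochberg adjustment).

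Cxcl2, also called MIP-2, was at 1.01 CPM in tumour 1a and 5.78 CPM in tumour 1b, against 0, 0.0312 and 0.0469 CPM in the glands. The papillary tumour held 0.103 CPM and the spindle cell tumour 0. The groups did not overlap, although tumour 1a, on 12 counts, lay nearer to the glands than tumour 1b did. Cxcl2 rose by 6.23 on the log2 scale (SE 1.16, adjusted p = 0.0309, edgeR), but it passed in 0 of the 4 fits with a library left out in which it was tested (adjusted p from 0.0599 to 0.0957). It did not pass in limma-voom either (adjusted p = 0.0846). The glands held only 2 counts in all, and the ratio of the pooled counts, 80.1, had a 95% exact counting interval of 21.2 to 678.

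Cxcl3, a close relative of Cxcl2, was at 10.4 and 4.44 CPM in tumours 1a and 1b and had no count in any gland. It was at 0.0344 CPM (1 count) in the papillary tumour and 0 in the spindle cell tumour. Set against 3 counts over the gland group, its pooled level was at least 152-fold higher in the adenosquamous tumours (edgeR adjusted p = 0.0260). With the counting error of the tumours included, the 95% exact lower limit was 123. Tumour 1b alone, with 33 of the 157 counts, was at least 83.3-fold higher on the same floor (lower limit 64.0). Cxcl5, a chemokine produced mainly by epithelial cells, was at 15.5 and 4.30 CPM in the adenosquamous tumours, 0.195 CPM in the spindle cell tumour, 0.103 CPM in the papillary tumour and 0 in the 3 glands. Its pooled level was at least 210-fold higher on the same floor (95% exact lower limit 169, edgeR adjusted p = 0.0291). Tumour 1a held 184 of the 216 counts, and tumour 1b alone was at least 80.8-fold higher (lower limit 62.0). For both genes every one of the gland counts was 0, so the size of the change is known only as a lower bound. Of the 75-base stretches of their transcripts, 4.572% in Cxcl2 and 2.777% in Cxcl3 occur in both genes, so a small part of the counts of this pair could have been assigned to either.

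**Figure D1:**
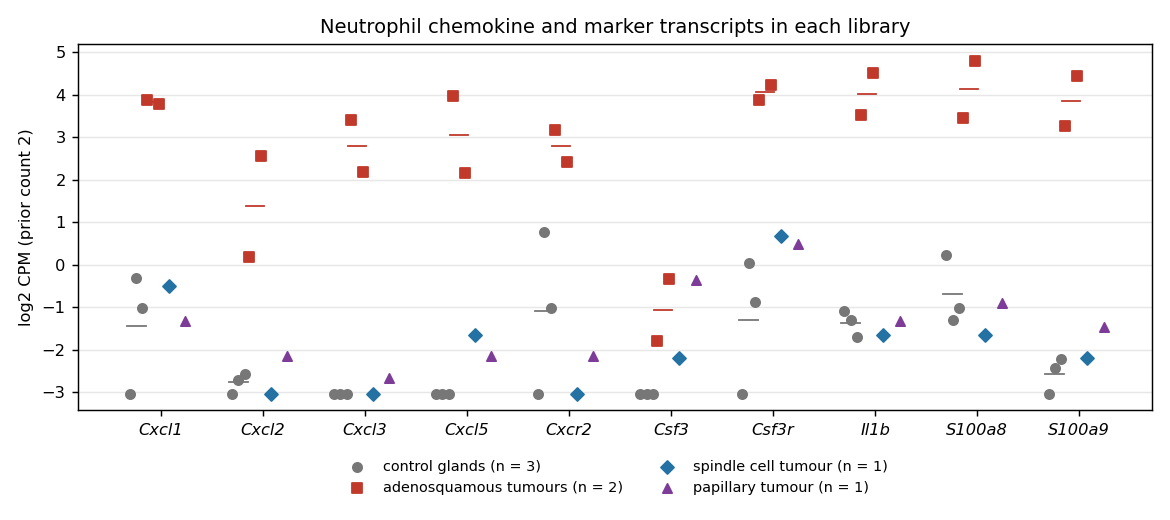
Level of each of the 10 genes in each of the 7 libraries, as log2 CPM with a prior count of 2, with 1 point per library and a line at the mean of the glands and of the adenosquamous tumours. Libraries without a count lie at the lowest level. In all 10 genes both adenosquamous tumours lie above the 3 glands, while the spindle cell and papillary tumours lie near the glands in most genes, with Csf3 in the papillary tumour (0.654 CPM) an exception.

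Cxcr2, the receptor of these chemokines, was at 8.84 and 5.25 CPM in tumours 1a and 1b. The glands held 0, 1.59 and 0.375 CPM, the papillary tumour 0.103 CPM and the spindle cell tumour 0. The adenosquamous tumours were above all glands, but gland 2, with 51 of the 59 gland counts, stood above the other glands. The difference of 3.10 on the log2 scale (SE 0.96) did not pass (edgeR adjusted p = 0.0936), and without gland 2 it was 4.47 and passed (adjusted p = 0.0341). In the spindle cell and papillary tumours Cxcr2 was below the pooled glands: the ratio for the papillary tumour was 0.0986 (95% counting interval 0.0198 to 0.302), and for the spindle cell tumour 0 (upper bound 0.354). These last ratios compare single libraries with a pool that rests mainly on gland 2.

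Csf3, the gene of G-CSF, was the least abundant of the 10 genes in the adenosquamous tumours and the only one in which the papillary tumour lay between tumours 1a and 1b. It had 2 and 5 counts in tumours 1a and 1b (0.168 and 0.672 CPM), 1 count in the spindle cell tumour (0.0974 CPM), 19 counts in the papillary tumour (0.654 CPM) and 0 in each gland. Every tumour thus held at least 1 count and no gland did. Against 3 counts over the gland group, the papillary tumour was at least 12.3-fold higher (95% exact lower limit 9.05) and the pooled adenosquamous tumours at least 6.80-fold higher (4.20). Tumour 1a, on 2 counts, had a lower limit of 0.890, and 3 counts in gland 1 alone would correspond to 1.05 CPM. The ratio of the adenosquamous to the other tumours was 0.712 (95% counting interval 0.254 to 1.75). Csf3 passed the filter on low counts in none of the 3 comparisons and was not tested there.

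Csf3r, the G-CSF receptor of neutrophils and their precursors, was at 14.6 and 18.7 CPM in tumours 1a and 1b. The spindle cell tumour was at 1.46 CPM, the papillary tumour at 1.27 CPM and the glands at 0, 0.904 and 0.422 CPM. All 4 tumours lay above all 3 glands. Csf3r rose in the adenosquamous tumours against the glands by 4.81 on the log2 scale (SE 0.72, adjusted p = 0.0220, edgeR). Over all 4 tumours the difference was 4.02 (SE 1.29) and did not pass (edgeR adjusted p = 0.0928), whereas DESeq2 gave 4.16 and an adjusted p of 0.00341. Of its 75-base stretches 3.134% also occur in unrelated transcripts, as do 1.81% of those of Cxcr2. Against the pooled glands the ratio of Csf3r was 2.16 in the spindle cell tumour (95% counting interval 1.11 to 4.03) and 1.89 in the papillary tumour (1.17 to 3.05).

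Il1b was at 11.3 and 22.6 CPM in tumours 1a and 1b, and at 0.195 and 0.276 CPM in the spindle cell and papillary tumours. The glands held 0.350, 0.280 and 0.187 CPM, close to one another. The other tumours lay inside the range of the glands, with ratios to the pooled glands of 0.783 for the spindle cell tumour (95% counting interval 0.0864 to 3.41) and 1.11 for the papillary tumour (0.403 to 2.83). Il1b rose in the adenosquamous tumours by 5.98 on the log2 scale (SE 0.57, adjusted p = 0.0182, edgeR). Its exons are overlapped on the other strand by Il1bos, which the library kit cannot separate, and Il1bos held 0 to 2 counts per library.

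S100a8 was at 10.8 and 27.7 CPM in tumours 1a and 1b, against 1.05 (3 counts), 0.280 and 0.375 CPM in the glands, 0.195 CPM in the spindle cell tumour and 0.413 CPM in the papillary tumour. Its partner S100a9 was at 9.42 and 21.4 CPM in the same tumours, against 0, 0.0623 and 0.0937 CPM in the glands, 0.0974 CPM in the spindle cell tumour and 0.241 CPM in the papillary tumour. Both genes were higher in tumour 1b than in 1a, and neither gene's groups overlapped. S100a8 rose by 5.41 (SE 0.74, edgeR adjusted p = 0.0201) and S100a9 by 7.57 (SE 0.70, edgeR adjusted p = 0.0180) on the log2 scale. The larger change of S100a9 rests on 4 gland counts, and its pooled ratio of 197 had a 95% counting interval of 76.2 to 730, while that of S100a8 was 48.7 (31.0 to 80.7).

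Across the adenosquamous tumours and the glands, 8 of the 9 genes tested rose and Cxcr2 did not pass, where 10.4% of all 14708 genes passed in either direction and 5.01% rose (edgeR, adjusted p under 0.05). The 2 adenosquamous libraries lay above the 3 glands in all 10 genes, against 28.2% of all genes tested. These counts are a description: 8 of the 9 genes reached the filter level of 1.25 CPM of unscaled library size in both adenosquamous libraries and in no gland, and so had to differ to be tested. All 9 were below an unadjusted p of 0.05, against 29.9% of all genes. DESeq2 called 9 (24.2% of all genes) and limma-voom 7 (10.8%). Leaving out control gland 3 left 0 members and 0 of all genes passing. The calls did not hold without tumour 1b either. With 1 adenosquamous library left, that library is assumed to vary like the others. Without tumour 1a 2 members passed (0.523% of all genes), without gland 1 6 passed (4.20%) and without gland 2 8 passed (10.8%). All 107 alternative values of these 9 genes were upward.

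Over all 4 tumours against the 3 glands, 2 of the 10 genes passed the filter and 0 passed the test, where 8.47% of 14149 genes passed (edgeR). Csf3r was below an unadjusted p of 0.05, as were 28.9% of all genes. DESeq2 called 1 member, Csf3r (24.1% of all genes), and limma-voom 0 (10.8%). The other 8 genes were left out because they reached the filter level in at most 2 of the libraries, those of tumours 1a and 1b, and 3 were needed. With no filter, all 10 were tested and 0 passed in edgeR (2.92% of all genes). Every tumour was above every gland for 4 genes (Cxcl5, S100a9, Csf3 and Csf3r), against 16.3% of all genes tested. Of these only Csf3r was itself tested. In the spindle cell tumour Cxcl5 had 2 counts, S100a9 1 count (0.0974 CPM, against 0.0937 CPM in gland 3) and Csf3 1 count. All lay under the 0.292 CPM that 3 counts correspond to in that tumour, so these separations are not resolved from counting error. The comparisons with the glands share the same 3 glands and are not independent.

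The adenosquamous tumours were also set against the spindle cell and papillary tumours. Of 9 genes tested, 0 passed at an adjusted p under 0.05 in edgeR, where 0 of 14101 genes passed (percent passing 0), and 9 were below an unadjusted p of 0.05, where 16.2% of all genes were. The differences ran from 3.62 (SE 0.41) for Csf3r to 7.83 (SE 1.03) for Cxcl3 on the log2 scale, with adjusted p from 0.126 to 0.191. DESeq2 called all 9 (9.82% of all genes) and limma-voom called 0 (0 of all genes). The libraries did not overlap in 9 genes, against 24.3% of genes tested. Except for Csf3r, the tested genes reached the filter level in no other tumour. With 2 libraries on each side and the second side made of different types, the differences between tumour types are not shown to exceed the spread between libraries.

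**Figure D2:**
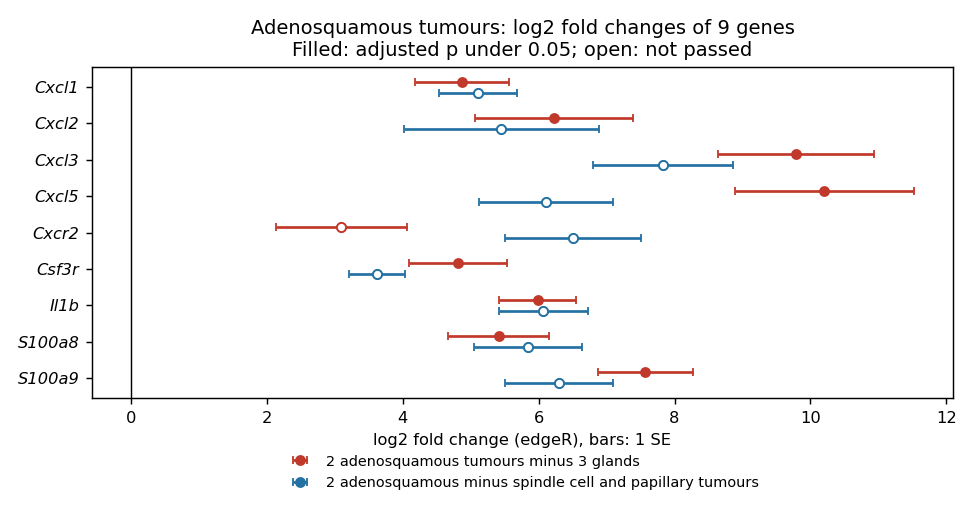
Log2 fold change of the 9 tested genes in adenosquamous tumours against glands (red) and against the spindle cell and papillary tumours (blue). Points are edgeR estimates, bars are 1 SE, and filled points passed at an adjusted p under 0.05: 8 of 9 did against the glands and 0 against the other tumours. The values of Cxcl3 and Cxcl5 against the glands depend on the prior count of the fit, because all gland counts were 0.

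Compared per kilobase of exon, so that genes can be ranked, the calprotectin genes led in the adenosquamous tumours, at 29.5 ± 16.2 CPM per kb for S100a9 and 27.7 ± 17.3 for S100a8 (SD, n = 2). Il1b followed at 8.88 ± 4.20, Cxcl1 at 7.48 ± 0.335, Cxcl5 at 5.31 ± 4.24 and Csf3r at 4.61 ± 0.811 CPM per kb. Cxcr2 was at 2.31 ± 0.833, Cxcl3 at 2.13 ± 1.21, Cxcl2 at 1.64 ± 1.63 and Csf3 at 0.298 ± 0.252 CPM per kb. Between neighbours in this order, the gaps from S100a8 to Il1b and from Csf3r to Cxcr2 were larger than the larger of the SDs of the pair, and the other gaps were not. In the glands all 10 genes were at 0.819 CPM per kb or less, with S100a8 the highest.

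The adenosquamous libraries differed from each other in 8 of the 10 genes beyond counting error. Over all genes with at least 10 counts in the pair, their chi-square was 108 per degree of freedom. Differences beyond counting error are thus not particular to the members, and the share of all genes that differed was not counted. Tumour 1a was higher than 1b in 3 genes, Cxcl3 (ratio 2.35, 95% counting interval 1.59 to 3.56), Cxcl5 (3.60, 2.46 to 5.41) and Cxcr2 (1.68, 1.16 to 2.499). Tumour 1b was higher in 5 genes, with ratios of 1a to 1b of 0.175 for Cxcl2 (0.0838 to 0.337), 0.389 for S100a8 (0.309 to 0.487), 0.441 for S100a9 (0.343 to 0.565), 0.499 for Il1b (0.395 to 0.630) and 0.779 for Csf3r (0.619 to 0.981). Cxcl1 was at a ratio of 1.07 (0.8286 to 1.38). The calprotectin genes and Il1b thus went with one tumour and Cxcl3 and Cxcl5 with the other, and these ratios compare 2 libraries, not conditions. Over the 7 libraries the 45 pairs of members had a median Pearson r of 0.88 in log2 CPM, from 0.28 to 0.98, and the 36 pairs without Csf3 ran from 0.75 to 0.98. These correlations are a description, since each point is 1 library with a depth common to all its genes, and the adenosquamous pair lay above the other 5 libraries in 9 of the 10 genes (not in Csf3). The share of all genes with that order was not counted.

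The chromosome 5 chemokines are interleaved with genes that did not all rise with them against the glands. Some of these are CXC chemokines too, so the members are not all of the CXC chemokines of this block. Ppbp, a CXC chemokine of platelets between Cxcl5 and Cxcl3, was at 2.61 and 2.29 CPM in the adenosquamous tumours. The glands held 4.90, 1.50 and 1.41 CPM of Ppbp, a difference of -0.06 on the log2 scale (edgeR adjusted p = 0.969). In the other tumours Ppbp was lower, at 0.292 CPM (spindle cell) and 0.138 CPM (papillary), and the adenosquamous tumours differed from them by 3.58 (SE 0.73, unadjusted p = 0.00579), where it did not pass (edgeR adjusted p = 0.149). Cxcl15, also a CXC chemokine, lies between Cxcl3 and Cxcl1 and fell. It was at 4.20, 4.21 and 20.5 CPM in the glands and at 0.0841 and 0 CPM in the adenosquamous tumours (difference -7.43, SE 1.40, edgeR adjusted p = 0.0323). Rassf6, upstream of Cxcl5, fell by 2.33 on the log2 scale (edgeR adjusted p = 0.0399). Mthfd2l, the gene next after Cxcl2, was at a difference of 0.14 (edgeR adjusted p = 0.841). Epgn, which encodes the growth factor epigen, lies beyond it and rose from 0, 0.0935 and 0.0937 CPM to 8.08 and 3.23 CPM (5.89 on the log2 scale, edgeR adjusted p = 0.0201).

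**Figure D3:**
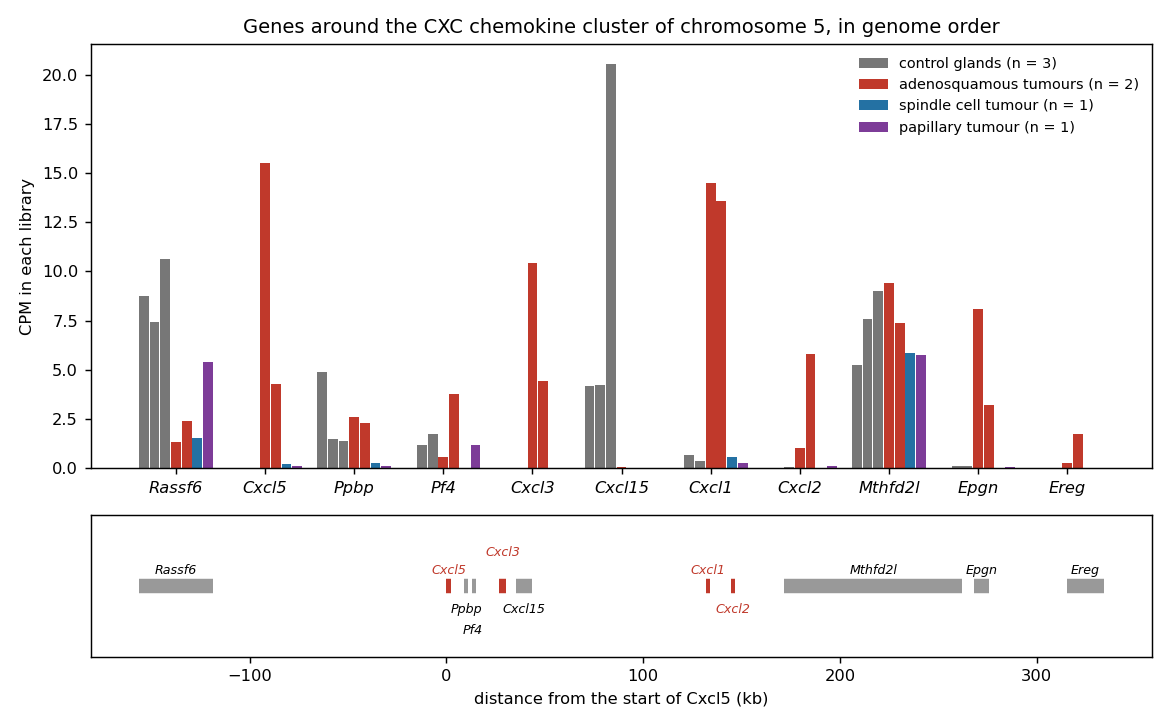
Top, CPM of each gene around the chromosome 5 chemokines in each library, 1 bar per library, with genes in genome order. Bottom, their positions to scale, as distance in kb from the start of Cxcl5, with the members in red. The members are high in the adenosquamous tumours, as is Epgn, whereas Ppbp and Mthfd2l overlap between groups and Cxcl15 is highest in the glands.

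Other genes of the same pathways were counted from lists chosen by name, first for adenosquamous tumours against glands, where the median of all genes was -0.04 on the log2 scale. There 10.4% of all genes passed in edgeR and 5.01% rose. Over these pathway lists together, 22 of 74 genes tested passed (29.7%). Of 15 neutrophil surface genes, 12 were tested. In limma-voom 3 of them passed (10.8% of all genes), and 1 passed in edgeR without gland 1 (4.20%). In the main edgeR fit 6 rose and 0 fell, with a median difference of 3.97. Among them Itgam (CD11b, an integrin chain of neutrophils, macrophages and some other leukocytes) rose by 4.34 (SE 0.75, edgeR adjusted p = 0.0270) and Clec4d, a C-type lectin, by 5.95 (SE 0.96, edgeR adjusted p = 0.0241), while Itgb2, its integrin partner, was at 3.59 (SE 0.87, edgeR adjusted p = 0.0541). Ly6g, the most specific neutrophil surface marker of the mouse, had 0 counts in all 7 libraries.

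Of 19 granule and maturation genes, 6 were tested and 3 rose, with a median of 5.03. Padi4, the enzyme of histone citrullination in neutrophils, rose by 6.36 (SE 0.84, edgeR adjusted p = 0.0189), and Chil3 by 4.13 (SE 0.94, edgeR adjusted p = 0.0471). Mmp8, the collagenase of neutrophils, was at 5.93 (SE 1.64, edgeR adjusted p = 0.0721). Of the early granule genes, Mpo had 6 counts in tumour 1a and 1 in the papillary tumour, and Elane had 0 in the tumours and 1 and 4 counts in glands 2 and 3. Prtn3 was highest in tumour 1b, at 3.36 CPM (25 counts). Tumour 1a, at 0.757 CPM (9 counts), lay below the papillary tumour, at 0.896 CPM. The glands held 0.350 (1 count), 0.405 and 0.375 CPM of Prtn3 and the spindle cell tumour 0.292 CPM. Ctsg had 2 counts in tumour 1a and 5 in gland 2. Prtn3 and Ctsg were not tested. Lcn2 (lipocalin 2), which epithelium also makes, was at 138 ± 52.1 CPM in the glands (SD, n = 3), 39.8 and 308 CPM in tumours 1a and 1b, 199 CPM in the spindle cell tumour and 1585 CPM in the papillary tumour, a difference of 0.26 between adenosquamous tumours and glands (edgeR adjusted p = 0.860). Its highest level was in the papillary tumour, where S100a8 and S100a9 were at 0.413 and 0.241 CPM.

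Of 6 phagocyte oxidase genes, all were tested and 0 passed (edgeR; 5 at an unadjusted p under 0.05, and DESeq2 called 5 and limma-voom 2). Their median was 2.54, with Cyba at 3.34 (edgeR adjusted p = 0.0599), Ncf4 at 3.19 (adjusted p = 0.0714) and Ncf1 at 2.48 (adjusted p = 0.0685). These genes encode subunits of the enzyme that makes the oxidative burst.

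Of 11 interleukin-1 pathway genes all were tested and 3 rose (median 1.22): Il1a, the other interleukin-1 (4.58, edgeR adjusted p = 0.0451), Il1rn, the receptor antagonist (7.18, SE 1.09, adjusted p = 0.0220), and Il1rap, the accessory receptor chain (2.05, SE 0.45, adjusted p = 0.0432). The adaptor Myd88 was at 1.27 (adjusted p = 0.119, edgeR). Of 18 genes of NF-kB and IL-17 signalling, 14 were tested and 2 rose (median 1.24), Lif (3.28, SE 0.77, edgeR adjusted p = 0.0496) and Ptgs2, which makes prostaglandins (6.86, SE 1.02, adjusted p = 0.0218), while Tnf was at 2.76 (SE 0.82, adjusted p = 0.0867) and Il23a at 3.24 (adjusted p = 0.232). Of 12 other S100 genes, 10 were tested and 4 rose (median 1.12), S100a14 by 8.06 (SE 0.57, edgeR adjusted p = 0.0170) the most, while S100a13 was at -1.04 (adjusted p = 0.148) and S100a1 at -1.75 (adjusted p = 0.0826). Of 11 other CXC chemokines, 9 were tested, Cxcl16 rose (3.03, SE 0.55, edgeR adjusted p = 0.0292) and Cxcl15 fell, with a median of -0.06, and Cxcl12 was at -1.04 (adjusted p = 0.256). Of 8 other chemokine receptors, 6 were tested and 2 rose, Ccr1 (4.41, SE 0.44, edgeR adjusted p = 0.0183) and Cxcr4 (2.13, SE 0.48, adjusted p = 0.0459), with a median of 0.64, and Ackr3 was at -0.05 (adjusted p = 0.956). Cxcr1, the sister receptor of Cxcr2, had 2 and 4 counts in tumours 1a and 1b and 0 in the other 5 libraries, and was not tested.

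In the lists above, 0 genes passed without gland 3 or without tumour 1b, and Il1a and Ptgs2 are named because they are the remaining genes of their lists that rose. As with the members, genes that reached the filter level in one group alone had to differ to be tested, so the counts are a description. Over all 4 tumours against the glands, where the median of all genes was 0.12, the same lists held 3 calls among 60 genes tested (5%, against 8.47% of all genes): Cxcl15 fell (-7.89, SE 1.01, edgeR adjusted p = 0.00989), Il1rap rose (1.80, SE 0.43, adjusted p = 0.0443) and S100a14 rose (7.36, SE 1.63, adjusted p = 0.0372). In the adenosquamous against the other tumours 0 genes of any list passed in edgeR, as was so for all genes.

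Marker lists of cell types were summed per library to set the members beside the cells these tissues could hold. The 8 neutrophil markers summed to 12.1 and 45.6 CPM in tumours 1a and 1b, against 0.350 to 1.90 CPM in the glands, 0.877 CPM in the spindle cell tumour and 9.13 CPM in the papillary tumour. In the adenosquamous tumours against the glands 4 of the 8 markers were tested and 2 rose (Padi4 and Trem1), and Ly6g was at 0 throughout. For this and the other marker counts below, 5.01% of all genes tested rose in that comparison. The sum of the papillary tumour was above that of each gland. In it Cd177 gave 4.41 CPM and Mmp8 2.69 CPM, while Cxcl1, Cxcl2, S100a8 and S100a9 were each at 0.413 CPM or less. In tumours 1a and 1b Cd177 was at 0.505 and 1.08 CPM, which overlapped the glands (0.350, 0.686 and 0.0469 CPM). Retnlg had 6 and 3 counts in those tumours and 0 in the glands. Neither gene was tested. The 10 macrophage markers, all tested, summed to 434 and 738 CPM in the adenosquamous tumours, 93.7 to 194 CPM in the glands, 117 CPM in the spindle cell tumour and 317 CPM in the papillary tumour, and 5 rose in the adenosquamous tumours. The 13 squamous keratinocyte markers summed to 1892 and 1050 CPM in the adenosquamous tumours against 10.8 to 31.0 CPM in the glands, 276 CPM in the spindle cell tumour and 22.9 CPM in the papillary tumour, and 8 of 11 tested rose. The 5 fibroblast markers summed to 4366 and 1118 CPM in tumours 1a and 1b, 362, 1012 and 1126 CPM in the glands, 231 CPM in the spindle cell tumour and 183 CPM in the papillary tumour. All 5 were tested and 1 rose in the adenosquamous tumours, the collagen gene Col1a1 (4.21, SE 0.72, edgeR adjusted p = 0.0267). The 4 eosinophil markers, none of which passed the filter, summed to 1.35 and 1.21 CPM in tumours 1a and 1b, 0.0469 to 1.05 CPM in the glands, 0.0974 CPM in the spindle cell tumour and 0.344 CPM in the papillary tumour. The neutrophil, macrophage and squamous keratinocyte sums were each highest in tumours 1a and 1b, where most members were highest. The eosinophil sums were highest there too, but not resolved from gland 1, where 1.05 CPM is 3 counts of Ccr3. The fibroblast sum of tumour 1b lay just under that of gland 3. The part of these cell types in the members' levels was not tested.

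**Figure D4:**
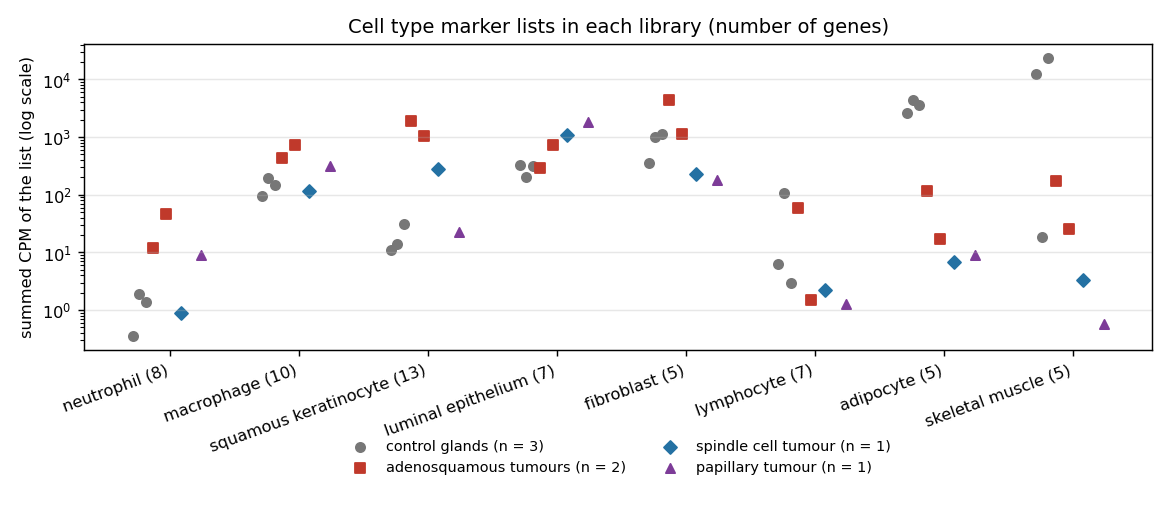
Summed CPM of each of 8 cell type marker lists in each library, 1 point per library, on a log axis, with the number of genes of the list in parentheses. The adenosquamous tumours have the highest sums of the neutrophil, macrophage and squamous keratinocyte lists.

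Among the other lists, the glands held adipocyte markers at 2600 to 4335 CPM against 6.92 to 117 CPM in the tumours, and skeletal muscle markers at 12431 and 23659 CPM in glands 1 and 3, which the gland libraries do not share evenly (18.2 CPM in gland 2). Lymphocyte markers were at 108 CPM in gland 2 and 60.0 CPM in tumour 1a and at 6.29 CPM or less in the other 5 libraries, and gland 2 was also the gland with the highest Cxcr2. The part of lymphocytes in that level was not tested. Luminal markers were at 1099 and 1811 CPM in the spindle cell and papillary tumours.

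For the 2 members that passed the filter over all 7 libraries, the genes closest in pattern were found by Pearson r of log2 CPM over the 7 libraries, among 11979 genes. Those nearest to Cxcr2 were Ppp1r18 (r = 0.995), Gsdmd (0.988) and Themis2 (0.985), and those nearest to Csf3r were Myo9b (0.995), C1qb (0.991) and Wdr1 (0.989). C1qb, a complement gene of macrophages, is also in the macrophage marker list. With 7 libraries, of which the adenosquamous pair stands apart, these values are a description, and no test was made.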

How the data were processed

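RNA was measured in 3 control mammary glands and 4 mammary tumours, 1 library each, grouped by the sample labels. Per the labels' protocols, a TruSeq v2 kit was used, whose reads carry no strand, with paired reads of 75 bases. Per the submitters' processing notes the authors used STAR 2.5, RSEM 1.3, limma and build GRCm38, with no role stated. Annotation, filters and strand settings are not stated in the sources used here. The deposited column is headed TPM, but its sums run from 5148438 to 35631279, so its values were taken as the authors' deposited expected counts, which were then rounded.

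Genes were tested with edgeR 4.0.16 (R 4.3.3; quasi-likelihood F test, TMM scaling with factors 0.556 to 1.54 over the 7 libraries, filterByExpr with a minimum count of 10 and total of 15, two-sided, Benjamini-Hochberg adjustment over all genes tested, threshold 0.05). SE is the absolute log2 fold change over the root of the F statistic. CPM uses the scaled library sizes, and log2 CPM a prior count of 2. Ratios of pooled counts have 95% exact counting intervals, and bounds use a floor of 3 counts over the group; both cover counting error only, since reads without molecular identifiers are not independent molecules. Alternatives were DESeq2 1.42.0, limma-voom 3.58.1, upper-quartile and median-ratio scaling, the unfiltered table, no mitochondrial genes, 1 fit with 3 groups, a prior count of 0.5, each library left out and, chosen after seeing the data, the gland or tumour number as a block. On simulated data with known changes of 4 on the log2 scale, the test recovered 75% of changed genes for tumours against glands (14149 genes), 66% for adenosquamous tumours against glands (14708 genes) and 79% for adenosquamous against other tumours (14101 genes). At changes of 2 it recovered 10%, 6% and 0%. Among unchanged genes it made 1, 5 and 14 false calls. The simulation drew counts around the mean of both groups for genes already past the filter, so its recovery need not hold for the members, many near 0 in 1 group. In the data themselves 0 of 14101 genes passed for the adenosquamous against the other tumours.

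Within groups, the chi-square between 2 libraries was at least 85.0 per degree of freedom, so no library repeats another; 1a and 1b were counted as 2 replicates, an assumption. The 10 genes and all lists were chosen with earlier results of these data known. From each pathway list the text names the 3 genes with the smallest p in tumours against glands, with Ly6g, Mpo, Elane, Lcn2 and Cxcr1 besides; other names were chosen after their values were seen. Nearest patterns were sought for members that passed the filter over all 7 libraries.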

Additional observations from a re-analysis of the deposited data

How the results depend on the processing

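In the adenosquamous tumours against the glands 8 members and 1525 genes passed. The gene count was 3562 with DESeq2 and 2508 with no filter, and it ran from 0 to 1498 as each library was left out, with 0 to 8 members passing; it was 0 without gland 3 (3471 at an unadjusted p under 0.05) and 0 without tumour 1b (2994). Of the 107 alternative values of the 9 tested members, 79 kept their side of the threshold, 25 lost it, 3 gained it and 0 changed sign. Cxcl2 did not pass in limma-voom (4.68, adjusted p = 0.0846). For all 4 tumours against the glands, 1199 genes and 0 members passed; DESeq2 gave 3403 genes and 1 member, leaving out each library gave 97 to 1351 genes, and the difference of Cxcr2 was -0.62 in limma-voom (adjusted p = 0.862), against 2.18 in edgeR. For the adenosquamous against the other tumours 0 genes and 0 members passed in edgeR; DESeq2 gave 1385 genes and 9 members, and no filter gave 2473 genes and 9 members. The cause of these changes was not tested. With a prior count of 0.5, 9 of 30 differences in mean log2 CPM moved by more than the spread and 0 changed sign. The scaling alternatives left the number of members passing as it was in all 3 comparisons. The numbers 1 and 3 occur among both glands and tumours. The labels do not say that a number marks an animal or batch, so the numbers were not taken as pairs. Deviations from the group means correlated across genes at -0.10 for number 1 and -0.04 for number 3. Unlike numbers gave -0.09 to 0.10, and with so few libraries these correlations cannot decide whether the numbers mark pairs. With the number as a replicate block, chosen after seeing the data, 0 genes (3021 at an unadjusted p under 0.05) and 0 members passed for all tumours against the glands. The other comparisons share 1 and 0 numbers and were not blocked. Depth limits the low genes: 3 counts correspond to 1.05 CPM in gland 1.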

Other observations

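Further genes of the pathway lists differed between the adenosquamous tumours and the glands, and those given here were chosen after their values were seen. Mmp9, which encodes a gelatinase of neutrophil granules that other cells also make, was at 294 and 63.7 CPM in tumours 1a and 1b, 0.699 to 3.09 CPM in the glands, 0.487 CPM in the spindle cell tumour and 0.551 CPM in the papillary tumour (6.21 on the log2 scale, SE 0.83, edgeR adjusted p = 0.0196). It was thus higher in tumour 1a, in contrast to S100a8, S100a9 and Il1b. Trem1, an activating receptor of neutrophils and monocytes, was at 2.69 and 7.13 CPM in tumours 1a and 1b and had 1 count in the glands in all (7.56, SE 1.05, edgeR adjusted p = 0.0202). S100a6, a calcium-binding protein of epithelium and stroma, was at 219 and 213 CPM in tumours 1a and 1b, 9.09 to 24 CPM in the 3 glands, 9.94 CPM in the spindle cell tumour and 10.1 CPM in the papillary tumour (3.69, SE 0.43, edgeR adjusted p = 0.0183). S100a10, which binds annexin A2, was at 171 and 195 CPM in tumours 1a and 1b, 84.9 CPM in the spindle cell tumour and 4.58 CPM in the papillary tumour, against 62.7 ± 13.8 CPM in the glands (SD, n = 3), and rose by 1.48 (SE 0.30, edgeR adjusted p = 0.0380). None of these calls held without gland 3 or without tumour 1b, where 0 genes passed.

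Ltf, which encodes the secretory protein lactoferrin of neutrophil granules and milk, was at 2609 CPM in the spindle cell tumour and 643 CPM in the papillary tumour, against 9.85 and 167 CPM in tumours 1a and 1b and 195 ± 69.4 CPM in the glands (SD, n = 3). The spindle cell tumour had the highest level of Ltf among the 7 libraries. Its S100a8 level of 0.195 CPM was the lowest of them, on 2 counts. That is under the 0.292 CPM that 3 counts correspond to in this tumour, so its rank is not resolved from counting error. The spindle cell and papillary tumours have 1 library each, and these values have no replicate check.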
